A study of Rattus norvegicus with 20 samples.

Results

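The interferon regulatory factors Irf1, Irf2, Irf3, Irf4, Irf5, Irf7, Irf8 and Irf9 were taken by gene symbol, and 7 of the 8 genes were measured. Their 10 probe sets were found among 31042 probe sets and 14217 named genes on the Affymetrix Rat Genome 230 2.0 array. A probe set is a group of short DNA probes that are read together as 1 signal of the labelled RNA that binds them. Irf1, Irf3, Irf5, Irf7 and Irf8 had 1 probe set each, Irf9 had 2 and Irf2 had 3. No probe set carried the symbol Irf4 in the platform's annotation, and Irf4 was not analysed here.

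These factors share a DNA-binding domain that reads repeats of the letters GAAA. In blood cells, sensors of microbial nucleic acids and of material from damaged cells activate Irf3, Irf5 and Irf7, which turn on type I interferon genes and inflammatory cytokines. Interferon then acts back on cells through Irf9 with Stat2, and raises Irf1 and Irf7, while Irf4 and Irf8 direct the formation of B cells, dendritic cells and monocytes.

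Blood RNA of male Wistar rats, an outbred strain, was measured on 20 arrays in 4 groups of 5, with 1 array per sample. The groups were susceptible rats after acetaminophen (APAP), called SA, susceptible rats before APAP (S), resistant rats after APAP (RA) and resistant rats before APAP (R). Of 35 dosed rats, the susceptible sub-group was the 5 with the highest serum alanine transaminase (ALT) after dosing and the resistant sub-group the 5 with the lowest. The study asked which blood transcripts differ between these sub-groups, also before dosing. All 4 groups came from rats that went on to receive 1200 mg/kg APAP by mouth after a fast of 12 h. SA and RA blood was drawn 24 h after the dose, and S and R blood 1 week before it. The study bled the same 10 rats at both times, but the labels do not say which postdose array belongs with which predose array, so that the arrays were compared as separate samples and the changes are not within-rat changes. The labels give the retro-orbital plexus as the site of bleeding for all samples, whereas the methods give the inferior vena cava for postdose blood. No array held blood of vehicle-treated rats, so that APAP, fasting, handling and the day of sampling cannot be told apart in the changes of SA against S and of RA against R.

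Signals were scaled to an array median of 1000 and compared on the log2 scale with limma, at a Benjamini-Hochberg adjusted p under 0.05 over all probe sets tested. The number of arrays limits the precision. Marker genes of 11 cell types were summed per array as a check of the tissue. The sums of neutrophils, T cells, natural killer cells, B cells and platelets were far above the bacterial control probe sets on all arrays. Among the neutrophil markers, Lcn2 alone was near the level of these controls, with a geometric mean signal of 49.6. Summed neutrophil markers were higher after dosing in both sub-groups with no overlap, at 835746 to 1207222 in SA against 489461 to 653943 in S and at 812495 to 1012021 in RA against 491464 to 699779 in R. Natural killer cell markers did the same, at 271995 to 430460 in SA against 152589 to 202081 in S and at 304304 to 445007 in RA against 152499 to 243775 in R. Of the 6 neutrophil markers, 5 had higher and 1 had lower means after dosing in each sub-group. All 6 natural killer cell markers had higher means in both. Summed monocyte markers had medians of 80452 in SA and 133034 in S, and of 90927 in RA and 134270 in R, with overlap. Of the 6 monocyte markers, 4 had lower and 2 had higher means after dosing in each sub-group. Liver cell markers reached 25344 in SA, against at most 3586 in S, 2791 in RA and 3677 in R. In susceptible rats 4 of the 6 liver cell markers had higher and 2 had lower means after dosing. Only Alb among them was called (log2 change 3.17, limma adjusted p = 0.0161). In whole blood, fewer cells of a type and less RNA per cell cannot be told apart.

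Of the 10 probe sets, 1 was called in susceptible rats after dosing against before (Irf1, higher) and 1 in resistant rats (Irf7, lower). Over all 30747 probe sets tested, 6.66% were called in susceptible rats (3.86% higher and 2.80% lower) and 5.11% in resistant rats (2.51% higher and 2.60% lower). The median log2 change of the 10 probe sets was 0.33 in susceptible rats, against 0.01 over all probe sets, and -0.39 in resistant rats, against -0.01 over all. In the postdose comparison of SA with RA, 1 of the 10 was called (Irf1, higher in SA), where 0.143% of all probe sets were called, and their median log2 difference was 0.60 against -0.0026 over all. The 44 calls over all probe sets became 7 to 18 without any one of RA replicates 1 to 4 and SA replicates 1 and 3, and 73 to 89 without any one of R replicates 2 and 5 and SA replicate 4. Before dosing, S against R gave 0 calls among the 10, with 0.00329% called over all probe sets. Of the 10, 1 had an unadjusted p under 0.05 in limma (Irf2 on 1382503_at), against 3.74% of all probe sets. The difference between the 2 changes gave 0 calls among the 10 and 0% over all probe sets. An unadjusted p under 0.05 in limma was found for 5 of the 10, against 6.90% of all probe sets. Irf9 gave 2 of these 5. The median of the 10 was 0.49, against 0.02 over all. The postdose comparison and the difference between changes share their arrays with the changes, so that they are not separate evidence.

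**Figure D1:**
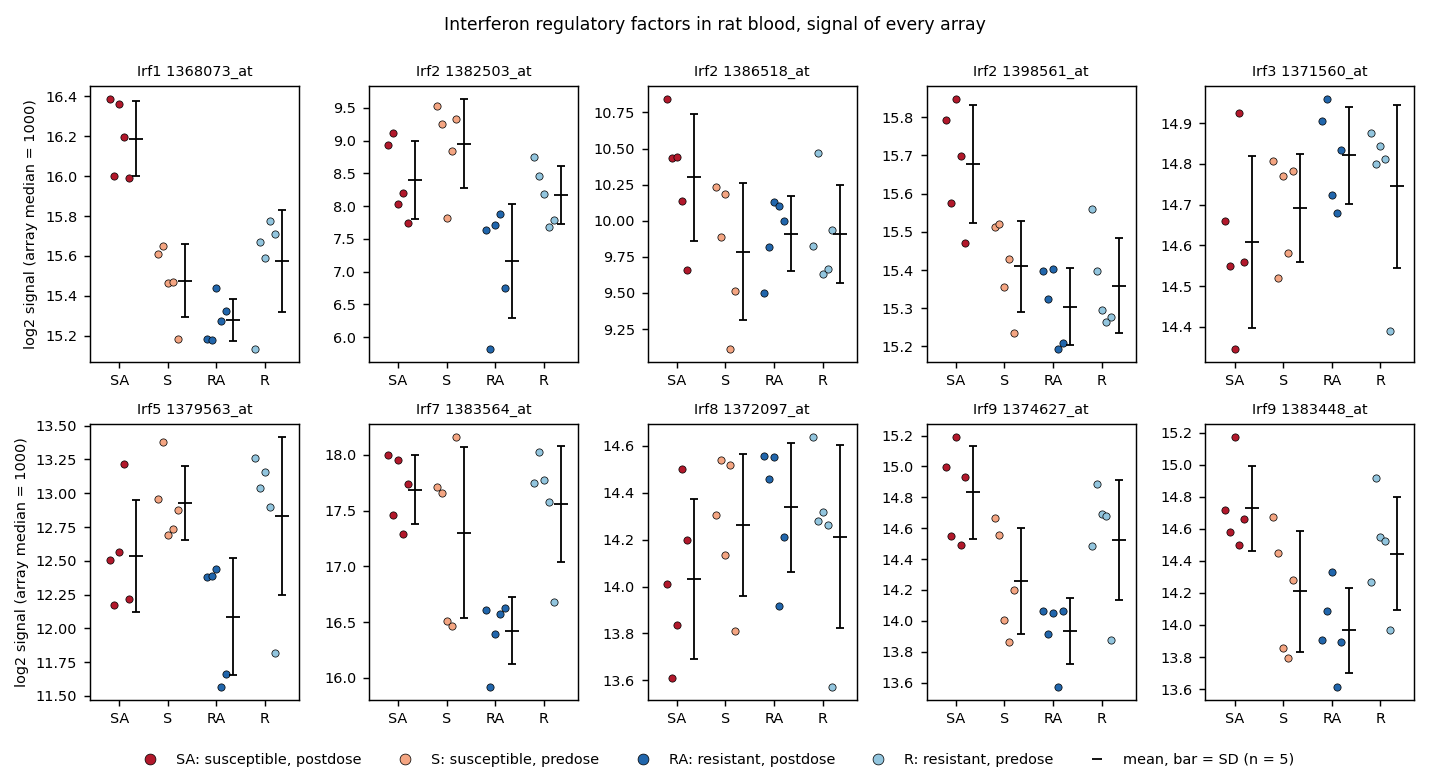
Log2 signal (array median 1000) of each interferon regulatory factor probe set on every array, by group: susceptible postdose (SA), susceptible predose (S), resistant postdose (RA) and resistant predose (R). Dots are arrays, and the black mark and bar are the mean and SD of 5 arrays. All 5 SA dots of Irf1 lie above the other 15, and the RA dots of Irf7 lie below all R dots.

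Counted by overlap alone, 1 of the 10 probe sets separated SA from S completely (Irf1), against 6.83% of all probe sets, and 1 separated RA from R (Irf7), against 6.76%. After dosing, 5 of the 10 separated SA from RA: Irf1, Irf7, both of Irf9 and that of Irf2 with the highest signal. Over all probe sets, 2.23% did so. None of the 10 separated S from R, against 0.529% of all.

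Irf1, which is induced by interferon gamma and drives genes of antigen presentation and cell death, was called in susceptible rats after dosing and in the postdose comparison. Its probe set (1368073_at) had signals of 85766, 65623, 84188, 75035 and 65193 in SA, against 50006, 51388, 45145, 45367 and 37224 in S. In RA the signals were 37234, 37068, 44377, 39626 and 40967, against 35919, 52070, 49326, 56042 and 53523 in R. Every SA array was thus above every array of the other 3 groups, whereas RA, S and R overlapped.

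The mean Irf1 signal was 75161 ± 9802 in SA and 45826 ± 5547 in S, and 39854 ± 3016 in RA and 49376 ± 7905 in R (SD, n = 5 each). Irf1 rose by 0.71 on the log2 scale in susceptible rats (SE 0.13, limma adjusted p = 0.00273), a ratio of 1.64. In resistant rats the log2 change was -0.30 (95% confidence interval -0.57 to -0.02, limma adjusted p = 0.247). After dosing, Irf1 was higher in SA than in RA by 0.91 (SE 0.13, limma adjusted p = 0.00967), a ratio of 1.88, and it ranked 6 by p among 30747 probe sets. The smallest p that an exact 2-sided permutation test of 5 against 5 arrays can give, 0.00794, was reached in both comparisons.

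The difference between the Irf1 changes was 1.01 (SE 0.18), with an unadjusted p of 3.701e-05 in limma, rank 7, and an adjusted p of 0.161. It passed the threshold when the limma prior followed intensity (adjusted p = 0.0193), where 26 of all probe sets were called against 0. It also passed when R replicate 1, the lowest R array, was left out (1.12, limma adjusted p = 0.0401), where 2 of all were called. Before dosing, S minus R was -0.10 (95% confidence interval -0.44 to 0.24, limma adjusted p = 0.9998). The Irf1 calls in SA against S and in SA against RA were kept without each single array in turn (adjusted p up to 0.0102 and 0.0442), but the methods' criterion of a 2-fold change was not met in either. Liver cell markers summed to 17511 and 25344 in SA replicates 1 and 3, to 6418 in SA replicate 5 and to 3259 and 2999 in SA replicates 2 and 4, against 1960 to 3586 in S. The arrays highest in liver cell markers, SA replicates 1 and 3, also had the 2 highest Irf1 signals. They were also the 2 highest SA arrays in summed neutrophil markers (1207222 and 1053557) and conventional dendritic cell markers (74804 and 69701). The parts of liver RNA and of cell makeup in the Irf1 difference were not tested.

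The Irf1 promoter is shown because the calls of Irf1 were kept whichever single array was left out. RefSeq's promoter table (build GRCr8, from 250 bases before to 50 after the start of the gene) gave windows for all of these genes but Irf2, and each was searched for the interferon-stimulated response element (GAAA, any 2 bases, GAAA) on both strands and for the gamma-activated site TTCNNNGAA, which reads the same on both strands. The first was in 3.77% and the second in 8.68% of 27457 rat promoter windows of this length. The Irf1 window (chr10:38417685-38417984, plus strand) held 1 gamma-activated site, in capitals, starting at -142 from the start of the gene, and no other motif searched overlapped it. The Irf8 window held 2 gamma-activated sites, starting at -180 and -161, that of Irf9 held 1, and those of Irf3, Irf4, Irf5 and Irf7 held none.
Irf1: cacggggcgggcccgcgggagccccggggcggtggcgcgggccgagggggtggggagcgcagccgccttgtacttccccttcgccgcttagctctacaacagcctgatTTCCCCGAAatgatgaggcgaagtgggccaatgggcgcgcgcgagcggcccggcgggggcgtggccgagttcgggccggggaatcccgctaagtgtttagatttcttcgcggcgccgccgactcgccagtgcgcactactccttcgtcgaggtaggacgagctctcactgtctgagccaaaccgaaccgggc

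Irf2 binds the same sites as Irf1 and mostly counteracts it. Its probe set of the highest signal (1398561_at) had signals of 56781, 48859.9, 58986, 53180.0 and 45448 in SA, against 46733, 46961, 41919.9, 44124 and 38547 in S. The signals were 43128, 41012, 43279.8, 37453 and 37866 in RA, against 48339, 43143, 40231, 39354 and 39743 in R. The SA arrays lay above all RA arrays but overlapped with S, and RA overlapped with R.

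The log2 change of this Irf2 probe set was 0.27 in susceptible rats (95% confidence interval 0.06 to 0.47, limma adjusted p = 0.120) and -0.05 in resistant rats (-0.26 to 0.15, adjusted p = 0.850). SA minus RA was 0.37 (0.17 to 0.58, limma adjusted p = 0.151), the difference between changes was 0.32 (adjusted p = 0.663), and none of these passed. The other Irf2 probe sets had low signals. That of 1386518_at ranged over 807 to 1839 in SA, 553 to 1207 in S, 725 to 1122 in RA and 793 to 1421 in R, with log2 changes of 0.52 in susceptible rats (limma adjusted p = 0.256) and 0.00 in resistant rats. That of 1382503_at ranged over 214 to 558 in SA, 225 to 740.5 in S, 56.4 to 236 in RA and 204 to 431 in R, and on 4 arrays it was at or below the highest bacterial trp control probe set of the same array. Its log2 changes were -0.55 in susceptible rats (limma adjusted p = 0.526) and -1.01 in resistant rats (adjusted p = 0.192), so that the 3 Irf2 probe sets did not run the same way in susceptible rats.

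Irf9, the DNA-binding subunit of the complex with Stat2 that carries type I interferon signals, gave like patterns on both of its probe sets. That of the higher signal (1374627_at) had signals of 32653, 24029, 37447, 22985 and 31226 in SA, against 25976, 24047, 16448, 14913 and 18784 in S. In RA they were 17123, 15463, 16996, 12161 and 17136, against 22936, 30290.5, 26481, 26258 and 15006 in R. All SA arrays lay above all RA arrays, and the R arrays lay above the RA arrays except for R replicate 5.

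The mean signal of this Irf9 probe set was 29668 ± 6089 in SA and 20033 ± 4797 in S, and 15776 ± 2140 in RA and 24194 ± 5759 in R (SD, n = 5 each). The log2 change was 0.57 in susceptible rats (95% confidence interval 0.15 to 0.9997, limma adjusted p = 0.107) and -0.59 in resistant rats (-1.02 to -0.17, adjusted p = 0.112). SA minus RA was 0.90 (0.47 to 1.32, limma adjusted p = 0.0854) and the difference between changes was 1.16 (adjusted p = 0.324). Without R replicate 5, the change of this probe set in resistant rats was -0.75 and passed (limma adjusted p = 0.0236), as did SA minus RA (adjusted p = 0.0377).

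The second Irf9 probe set (1383448_at) ranged over 23194 to 37015 in SA and 14174 to 26104 in S, and over 12514 to 20625 in RA and 16008 to 30987 in R. Its log2 change was 0.52 in susceptible rats (limma adjusted p = 0.156) and -0.48 in resistant rats (adjusted p = 0.222). SA minus RA was 0.76 on this probe set (limma adjusted p = 0.1603), again without overlap. It passed in no fit that left out 1 array, with a lowest limma adjusted p of 0.106 in resistant rats and 0.125 in SA against RA. Over the 20 arrays, after removal of the group means, the 2 probe sets of Irf9 had a Pearson r of 0.89.

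The Irf9 promoter is shown because both Irf9 probe sets separated SA from RA. Its window (chr15:33065586-33065885, plus strand) held 1 gamma-activated site, in capitals, starting at -99.
Irf9: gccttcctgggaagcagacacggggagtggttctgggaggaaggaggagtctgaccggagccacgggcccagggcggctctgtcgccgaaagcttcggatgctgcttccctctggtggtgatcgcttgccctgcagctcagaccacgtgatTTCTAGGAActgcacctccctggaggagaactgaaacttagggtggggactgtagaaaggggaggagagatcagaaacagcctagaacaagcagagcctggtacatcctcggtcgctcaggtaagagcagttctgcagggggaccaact

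Irf7, the main driver of type I interferon production once it is itself induced, was called in resistant rats after dosing. Its probe set (1383564_at) had signals of 262494, 180083, 253809.5, 159939.6 and 218189.5 in SA, against 214154, 206607, 93370.4, 90690.1 and 293225 in S. In RA they were 99875, 61827, 86217, 97402 and 100980.3, against 219487, 266656, 224552, 195621 and 104687 in R. The RA arrays lay below all R arrays and all SA arrays, with R replicate 5 closest to them, and the S arrays fell into 3 high and 2 low values and overlapped with every other group.

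The mean Irf7 signal was 214903 ± 44785 in SA and 179609 ± 86854 in S, and 89260.2 ± 16418 in RA and 202201 ± 60219 in R (SD, n = 5 each). Irf7 fell by 1.14 on the log2 scale in resistant rats (SE 0.31, limma adjusted p = 0.0431), a ratio of 0.455. The log2 change in susceptible rats was 0.39 (95% confidence interval -0.28 to 1.05, limma adjusted p = 0.572). SA minus RA was 1.26 (0.60 to 1.93, limma adjusted p = 0.125), the difference between changes was 1.52 (0.59 to 2.46, adjusted p = 0.442), and S minus R was -0.26 (adjusted p = 0.9998). The permutation p reached its smallest value, 0.00794, in RA against R and in SA against RA (exact, 2-sided).

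The Irf7 call was close to the threshold. It was lost when any one of RA replicates 1 to 5, R replicates 1 to 4 or SA replicates 2, 3 and 5 was left out (limma adjusted p of 0.0505 to 0.115), while the log2 change stayed between -1.36 and -1.01. The arrays low in Irf7 within S and R were also low in monocyte markers: their summed signal was 87573 and 98882 in S replicates 3 and 4, against 133034 to 149430 in the other S arrays, and 72307 in R replicate 5, against 125544 to 153028 in the other R arrays. S replicates 3 and 4 were also the lowest S arrays in B cell markers (94165 and 82485), but the highest in T cell and platelet markers. R replicate 5 was also the lowest R array in B cell, plasma cell, dendritic cell, neutrophil, T cell and natural killer cell markers. In SA the monocyte sum was 56992 to 125109 and in RA 50081 to 110484. The part of cell makeup in the Irf7 difference was not tested.

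**Figure D2:**
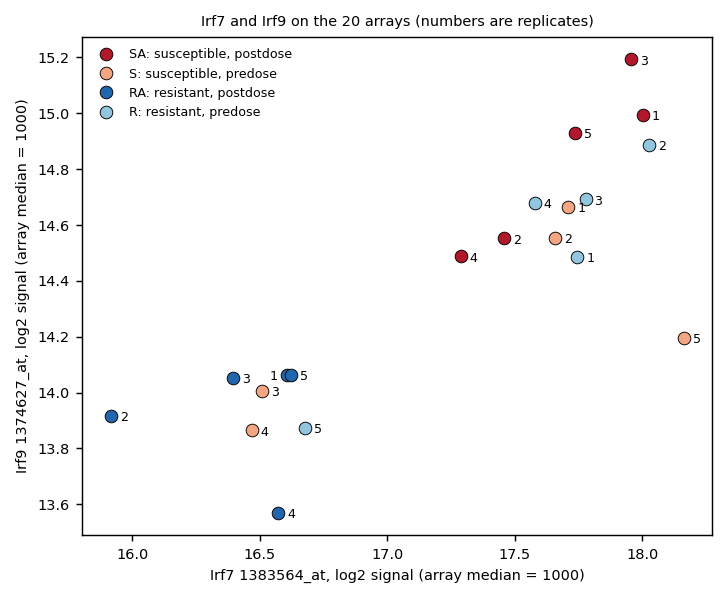
Log2 signal of Irf9 (1374627_at, vertical axis) against that of Irf7 (1383564_at, horizontal axis) on the 20 arrays, with colours for SA, S, RA and R and the replicate number beside each dot (array median 1000). The 5 RA arrays, S replicates 3 and 4 and R replicate 5 sit low on both axes. All SA arrays lie above them on both, but several S and R arrays lie above SA replicates 2 and 4 on both.

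Irf7 and Irf9 ran together from array to array. After removal of the group means, the Pearson r of Irf7 with the probe sets of Irf9 was 0.72 and 0.64 over 20 arrays, whereas that of Irf7 with Irf1 was -0.06. These values describe the arrays, which share RNA preparation and cell makeup, and are given without a test.

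The Irf7 promoter is shown because it was the only one of these windows with an interferon-stimulated response element. The window (chr1:205799974-205800273, minus strand) held it in capitals, starting at -69 and read on the opposite strand as printed.
Irf7: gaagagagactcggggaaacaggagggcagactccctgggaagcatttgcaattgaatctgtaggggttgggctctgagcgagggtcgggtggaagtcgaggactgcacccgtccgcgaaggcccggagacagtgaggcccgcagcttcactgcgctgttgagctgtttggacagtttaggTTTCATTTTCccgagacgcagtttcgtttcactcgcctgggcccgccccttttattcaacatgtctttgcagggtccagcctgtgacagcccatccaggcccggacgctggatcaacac

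Irf3, which is made at a steady level and activated by phosphorylation, passed the test in no comparison. Its signals ranged over 20809.5 to 31128 in SA and 23492 to 28679 in S, and over 26249 to 31874 in RA and 21457 to 30071 in R. The log2 change of Irf3 was -0.08 in susceptible rats (95% confidence interval -0.34 to 0.17, limma adjusted p = 0.776) and 0.08 in resistant rats (-0.18 to 0.33, adjusted p = 0.827). The difference of SA from RA was -0.21 (-0.46 to 0.04, limma adjusted p = 0.626).

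Irf5, which acts downstream of Myd88 on inflammatory cytokine genes and is found in monocytes and B cells, had lower means after dosing in both sub-groups without passing the test. Its signals were 5806, 4618, 6055, 9507 and 4771 in SA, against 7935, 10632, 6623, 6813 and 7515 in S. They were 5343, 5357, 5547, 3029 and 3248 in RA, against 9804, 8414, 9137, 7624 and 3608 in R. SA replicate 4 and R replicate 5 lay outside the run of their groups and gave the overlap.

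The Irf5 log2 change was -0.39 in susceptible rats (95% confidence interval -0.97 to 0.18, limma adjusted p = 0.494) and -0.75 in resistant rats (-1.32 to -0.17, adjusted p = 0.142). Without R replicate 5 the change in resistant rats was -1.0 and passed (limma adjusted p = 0.0169). Between SA and RA the difference was 0.45 (-0.13 to 1.02, limma adjusted p = 0.660). In each of the 4 groups the array with the lowest Irf5 signal was also the array with the lowest summed monocyte signal, namely SA replicate 2, S replicate 3, RA replicate 4 and R replicate 5. SA replicate 2, RA replicate 4 and R replicate 5 were also the lowest of their groups in plasmacytoid dendritic, conventional dendritic and natural killer cell markers. S replicate 3 was the lowest S array in none of these. The parts of monocyte number and of other cell makeup in the Irf5 values were not tested.

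Irf8, a factor of monocytes, dendritic cells and B cells, ranged over 12496 to 23223 in SA and 14356 to 23843 in S, and over 15463 to 24066 in RA and 12168 to 25511 in R. The Irf8 log2 change was -0.23 in susceptible rats (95% confidence interval -0.67 to 0.21, limma adjusted p = 0.620) and 0.12 in resistant rats (-0.31 to 0.56, adjusted p = 0.839). Between SA and RA the difference was -0.31 (-0.75 to 0.13, limma adjusted p = 0.704). B cell markers summed to 66724 to 86810.4 in SA against 82485 to 112545 in S, and to 73175 to 93722 in RA against 92056 to 134281 in R. Irf5 and Irf8 had a Pearson r of 0.81 over 20 arrays after removal of the group means.

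**Figure D3:**
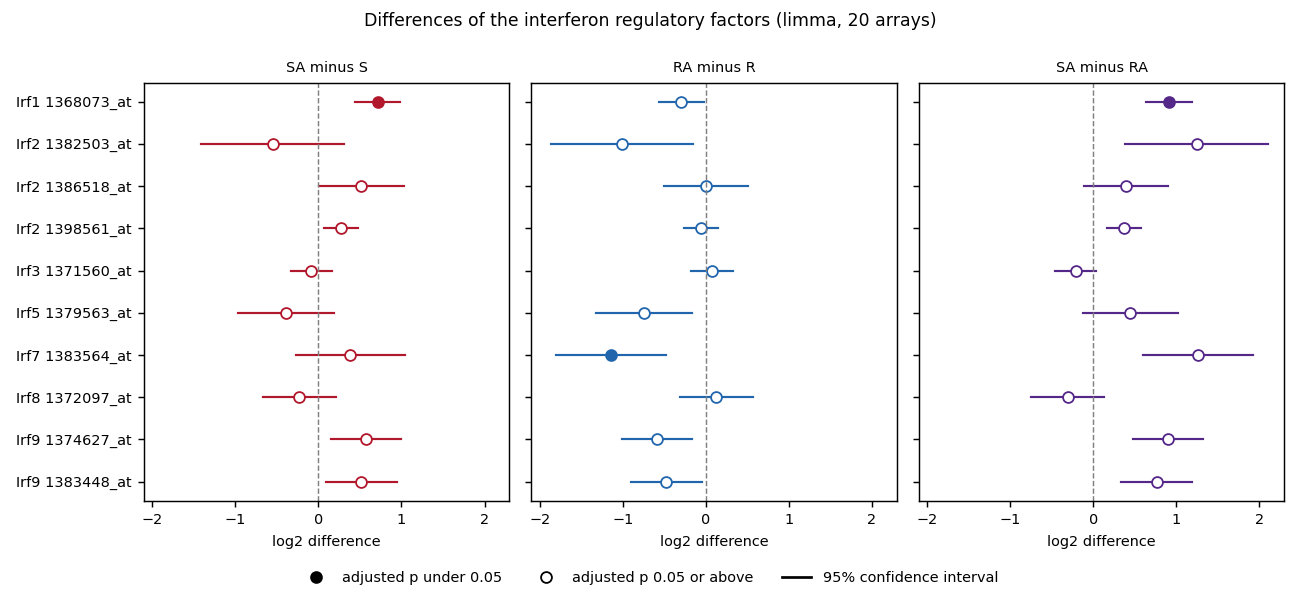
Log2 differences of the 10 probe sets for SA minus S, RA minus R and SA minus RA (horizontal axis), with 95% confidence intervals from limma over 20 arrays and filled dots where the adjusted p was under 0.05. Only Irf1 is filled in SA minus S (0.71) and in SA minus RA (0.91), and only Irf7 in RA minus R (-1.14).

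The genes around these factors were taken in 5 lists, each gene with its probe set of the highest mean signal. For comparison, 3.86% of all probe sets were called higher and 2.80% lower in susceptible rats. In resistant rats these shares were 2.51% and 2.60%, and 0.143% were called in SA against RA. Of the kinases and adaptors that activate Irf3, Irf5 and Irf7, 12 of 13 were measured, and 3 rose in susceptible rats while 3 rose and 1 fell in resistant rats. Myd88, the adaptor of most Toll-like receptors, rose by 0.84 in susceptible rats (limma adjusted p = 0.00121) and by 0.64 in resistant rats (adjusted p = 0.00974). Tbkbp1, which binds the kinase Tbk1, rose by 0.63 in susceptible rats (limma adjusted p = 0.00946) and by 0.72 in resistant rats (adjusted p = 0.00433). Ticam1, the adaptor of Toll-like receptor 3, rose by 0.94 in susceptible rats (limma adjusted p = 0.00411), and its change of 0.69 in resistant rats (adjusted p = 0.0367) kept the call in 12 of 20 fits that left out 1 array. The ubiquitin ligase Traf6 fell by 0.65 in resistant rats (limma adjusted p = 0.0181), a call lost without R replicate 3 (adjusted p = 0.0538), where the count in resistant rats was 2. Irak1, of the highest signal in the list, was at -0.03 in both sub-groups, and none of the 12 passed in SA against RA.

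Of the partners at DNA, 7 of 10 were measured, and 2 rose in susceptible rats and 1 in resistant rats. Among all probe sets, 3.86% and 2.51% were called higher. Stat2, which joins Irf9 in the interferon complex, rose by 1.30 in susceptible rats (limma adjusted p = 0.00180), with -0.23 in resistant rats (adjusted p = 0.685). SA minus RA of Stat2 was 1.34 (limma adjusted p = 0.0196), a call kept in 14 of 20 fits that left out 1 array. Batf, a partner of Irf4 and Irf8, rose by 0.76 in susceptible rats (limma adjusted p = 0.00267), and its change of 0.51 in resistant rats (adjusted p = 0.0376) was kept in 12 of 20. The coactivators Ep300 and Crebbp, of the highest signal in the list, did not pass in either sub-group (log2 changes of 0.41 and -0.15 in susceptible rats, and of 0.23 and -0.12 in resistant rats).

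Of the co-regulators and turnover factors, 7 of 10 were measured, and none passed in susceptible rats. Irf2bpl, a relative of the Irf2 binding proteins, rose by 0.49 in resistant rats (limma adjusted p = 0.0110). It was the only 1 of the 7 called there, against 5.11% of all probe sets. Irf2bp2 and Rbck1 had the highest signals, with log2 changes of 0.01 and -0.15 in susceptible rats and of -0.29 and -0.13 in resistant rats.

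Of the interferons and receptors all 8 were measured, and 3 rose in each sub-group. The shares of all probe sets called higher were 3.86% in susceptible and 2.51% in resistant rats. Il10rb, a receptor chain that interferon lambda shares with interleukin 10, rose by 0.92 in susceptible rats (limma adjusted p = 4.822e-04) and by 0.74 in resistant rats (adjusted p = 0.00308). Ifnar2, a chain of the type I interferon receptor, rose by 0.67 in susceptible rats (limma adjusted p = 0.00497), and its change of 0.48 in resistant rats (adjusted p = 0.0445) was kept in 6 of 20 fits. Ifngr2 and Ifngr1, the chains of the interferon gamma receptor, each passed in 1 sub-group: Ifngr2 with 0.47 in susceptible rats (limma adjusted p = 0.0442, kept in 7 of 20) and Ifngr1 with 0.54 in resistant rats (adjusted p = 0.0356, kept in 13 of 20). The count in resistant rats was 1 without any one of R replicates 2 and 3 and RA replicates 1, 2, 3 and 5. The interferon genes themselves had low signals, with geometric mean signals of 86.5 for Ifnb1 and 282 for Ifng over the 20 arrays, and neither passed. None of the 8 passed in SA against RA.

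Of 25 interferon-induced genes with known sites for these factors, 24 were measured. In susceptible rats 8 rose, against 3.86% of all probe sets. In resistant rats 1 rose and 2 fell, against 2.51% and 2.60% of all. The count in susceptible rats was 3 without any one of SA replicates 1 and 3 and S replicate 3, and 4 without S replicate 4. SA replicates 1 and 3 were the highest SA arrays in liver cell, neutrophil and conventional dendritic cell markers. Liver cell markers summed to 3017 and 2605 in S replicates 3 and 4. The parts of liver RNA and of cell makeup in these counts were not tested. The count in resistant rats was 1 without any one of R replicates 2 and 3 and RA replicate 5, and 8 without R replicate 5. Their median log2 change was 0.47 in susceptible rats, against 0.01 over all probe sets, and -0.30 in resistant rats, against -0.01. The guanylate-binding protein Gbp2 rose by 2.03 in susceptible rats (limma adjusted p = 1.437e-04), against -0.13 in resistant rats (adjusted p = 0.872). Ifit3, an antiviral protein, rose by 1.56 in susceptible rats (limma adjusted p = 0.00549), and the peptide transporter Tap1 rose by 0.68 (adjusted p = 0.00928). Socs1, an inhibitor of interferon receptors, and Usp18, another inhibitor, changed by 2.37 and 1.88 in susceptible rats (limma adjusted p = 0.0186 and 0.0193). Each was kept in 16 of 20 fits that left out 1 array. Socs1 was low and varied in S (mean log2 signal 8.24, SD 1.47), against means of 10.61 in SA and 10.08 in R. Psmb9, Tapbp and Oas1a changed by 0.59, 0.78 and 1.41 in susceptible rats (limma adjusted p = 0.0228, 0.0382 and 0.0457), and were kept in 16, 14 and 5 of 20.

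In resistant rats, interleukin 15 (Il15) fell by 0.70 (limma adjusted p = 0.00826), and the repressor Prdm1 changed by 1.005 (adjusted p = 0.0238, kept in 17 of 20). Cxcl10, a chemokine that attracts T cells, changed by -2.25 in resistant rats (limma adjusted p = 0.0488, kept in 6 of 20), against 1.76 in susceptible rats (adjusted p = 0.117). After dosing, 3 of the 24 were higher in SA than in RA: Gbp2 by 1.99 (limma adjusted p = 0.00967), Cxcl10 by 3.71 (adjusted p = 0.0226, kept in 14 of 20) and Usp18 by 2.61 (adjusted p = 0.0266, kept in 12 of 20). Of all probe sets, 0.143% were called in SA against RA. The count of 3 was 1 without any one of RA replicates 1, 2, 4 and 5 and SA replicates 1 and 3. It was 5 without R replicate 5. B2m and Rsad2, of the highest signal in the list, had log2 changes of 0.10 and 0.44 in susceptible rats and of -0.06 and 0.17 in resistant rats and did not pass. The difference between changes was positive for 22 of the 24 genes, against 52.2% of all probe sets (median 1.29, against 0.02 over all), with 0 calls. The letters of the interferon-stimulated response element were in 16 of the 20 promoter windows found for this list, whose genes were picked for such sites.

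**Figure D4:**
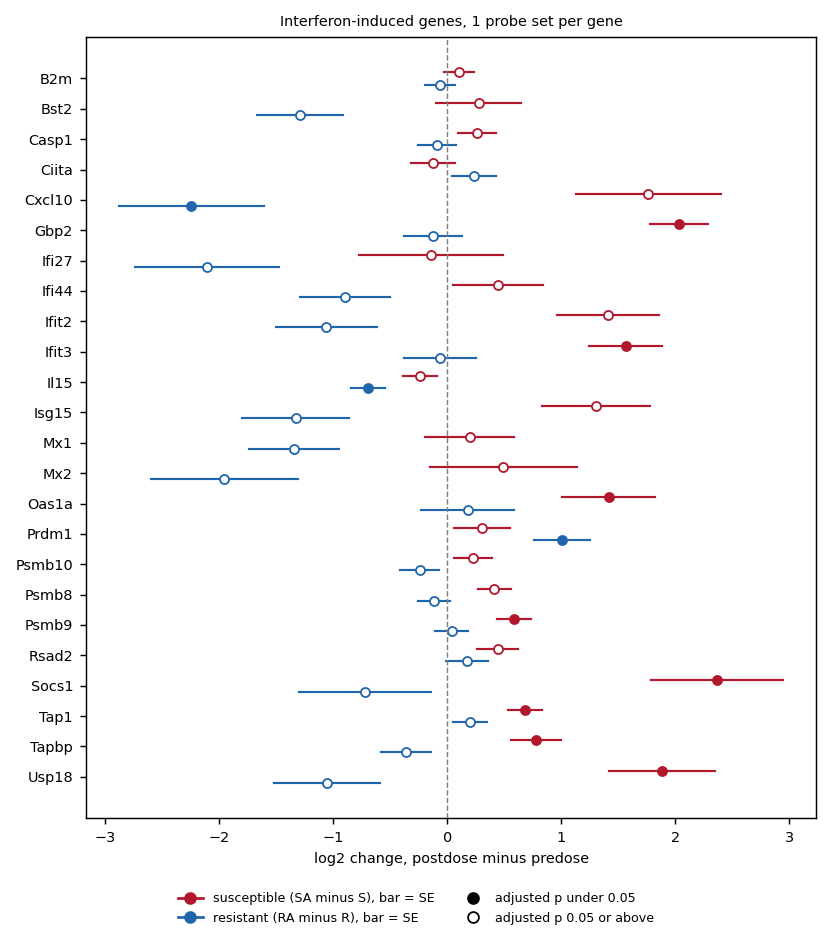
Log2 change after dosing of 24 interferon-induced genes in susceptible rats (SA minus S, red, upper dot of each pair) and resistant rats (RA minus R, blue, lower dot), with SE bars from limma and filled dots where the adjusted p was under 0.05. Gbp2 lies at 2.03 in susceptible and -0.13 in resistant rats, and Cxcl10 at 1.76 and -2.25.

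The genes most like each factor were found by Pearson r over the 20 arrays after removal of the group means, among 8820 genes at a mean signal of 1000 or more. For Irf7 they were Lgals3bp (r = 0.92), RT1-S3, Lgals9, Oas1a and Ifi27 (r = 0.90). For Irf9 they were Tdrd7 (r = 0.94), Adar, Oasl, Qpct and Fcgr1a (r = 0.90). Irf1 had no gene as close, with Pld2 first (r = 0.77), followed by Acad10, Crem, Ier3 and Slc38a2. Irf5 ran closest with Crip1, Pgls and Ifi30 (r = 0.95, 0.95 and 0.94), Irf8 with Ctsa (r = 0.92), Irf2 with Lpin2 (r = 0.88) and Irf3 with Dtd1 (r = 0.87). The arrays share preparation and cell makeup, and these values are a description without a test.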

How the data were processed

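Blood RNA of 20 samples in 4 groups of 5 was measured on Affymetrix Rat Genome 230 2.0 arrays. The authors deposited 1 linear intensity value per probe set and array, with array medians of 187 to 223. The program behind these intensities is not given in the sources used here, and the methods scale each chip to a median of 1000. That scaling was applied here over 31042 probe sets without the 57 controls, and log2 values were taken.

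Groups came from the sample titles. Per the methods, the same 10 rats gave the predose and postdose blood, but titles number the replicates of each group without saying that equal numbers are 1 rat. All arrays were therefore treated as separate samples, with no pairing in the model. A probe set had to reach 100 on at least 1 array of a fit (30747 tested, and 30416 in the predose comparison), and all 10 member probe sets were tested. Group means were fitted and contrasted in limma 3.58.1 (R 4.3.3; lmFit, contrasts and eBayes) over all 20 arrays, and over the 10 predose arrays for S against R, with Benjamini-Hochberg adjustment over all probe sets and calls at an adjusted p under 0.05. The fit was tested on simulated data. For the change in susceptible rats, log2 changes of 1 were recovered in 46 of 55 probe sets at signals of 1000 or more. Below 1000, 0 of 41 were recovered. Log2 changes of 2 were recovered in 51 of 52 at 1000 or more and in 13 of 52 below. Over both sizes and signal levels, 10 of 120 calls were false. For the difference between changes, log2 changes of 1 were recovered in 26 of 44 at 1000 or more and in 0 of 50 below. Single probe sets were also put to an exact 2-sided permutation test over the 252 arrangements of 5 and 5 arrays.

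The platform's annotation named the genes and gave 20826 probe sets 1 symbol, 436 several and 9780 none. All probe sets of the 8 factors were reported. Other genes were named if they passed in the change of either sub-group or had 1 of the 2 highest mean signals in their list (Ifnb1 and Ifng fall outside this rule and were chosen after their values were seen), and the 5 genes most like a factor by Pearson r were found over probe sets with 1 symbol. Members and lists were chosen with earlier results of these data known. Promoter sequences were those of RefSeq (GRCr8). Plots were made in Python 3.11.15 (matplotlib 3.10.9).

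The alternatives tried were quantile normalization, unscaled values, testing without a filter, a stricter filter (500 or more on at least 5 arrays), 1 probe set per gene, Welch's test with adjustment or with the p and 2-fold change of the methods, an intensity trend, only the arrays compared, the replicate number as a block and leaving out each array. The intensity trend was run only for the difference between changes, and the block only for the changes and their difference. Welch's test was not run for the difference between changes. The fit of only the arrays compared was not run for that difference or for S against R. The use of the alternatives on the gene lists was added after the data had been seen. Serum, histology and PCR data were not used here.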

Additional observations from a re-analysis of the deposited data

Results flagged for a closer look

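In 3 of 40 sets of 5 arrays, 1 array stood apart from the other 4 by Dixon's criterion, which chance gives in about 1 in 20 sets. Irf1 in R replicate 1 had a log2 signal of 15.13, below the other R arrays. Irf3 and Irf5 in R replicate 5 had log2 signals of 14.39 and 11.82, also below the other R arrays. R replicate 5 was the lowest R array for 6 of the 10 probe sets, and RA replicate 4 was the lowest RA array for 6 of 10.

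For 5 of the 10 probe sets, the test of the difference between the 2 changes after dosing gave an unadjusted p under 0.05 in limma. The share over all probe sets tested was 6.90%. None of the 5 passed after adjustment. The change in susceptible rats minus that in resistant rats was 1.01 for Irf1 (adjusted p = 0.161), 0.32 for Irf2 on 1398561_at (adjusted p = 0.663) and 1.52 for Irf7 (adjusted p = 0.442). It was 1.16 and 0.996 for Irf9 on 1374627_at and 1383448_at (adjusted p = 0.324 and 0.432).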

How the results depend on the processing

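Of 1280 values of the 10 probe sets under alternatives, 1240 kept their direction and side of the threshold, 17 lost a call, 8 gained one and 15 turned in direction. The count of probe sets called in susceptible rats was 1 in all fits that left out 1 array, and 0 with Welch's p and 2-fold change of the methods. In resistant rats the count was 0 with the adjusted Welch test and 0 to 3 when 1 array was left out, with 3 without R replicate 5 (Irf7, Irf9 on 1374627_at and Irf5). For the difference between changes it was 1 with an intensity trend (26 over all probe sets) and 0 to 1 when 1 array was left out (0 to 2 over all). After dosing it was 2 with the stricter filter (Irf9 on 1374627_at, limma adjusted p = 0.0437), with 131 over all probe sets. It was 0 with the adjusted Welch test (Irf1, adjusted p = 0.132). With the p and fold change of the methods it was 2 (Irf7 and Irf2 on 1382503_at), with 559 over all. It was 1 to 2 when 1 array was left out. The cause of these changes was not tested. Before dosing it was 0 throughout.

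Directions turned only for values near 0 that were never called, when 1 array was left out. In resistant rats the log2 change ranged from -0.066 to 0.14 for Irf2 on 1386518_at, from -0.013 to 0.11 for Irf3 and from -0.036 to 0.23 for Irf8. In S minus R it ranged from -0.23 to 0.047 for Irf2 on 1386518_at, from -0.11 to 0.16 for Irf8 and from -0.16 to 0.20 for Irf5.

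With the replicate number as a block, the count in resistant rats was 0 (Irf7, adjusted p = 0.0984), and no other count of members changed. Of the list genes, the block also ended the calls of Ticam1, Myd88 (adjusted p = 0.0646), Batf, Irf2bpl (0.0714), Ifnar2, Ifngr1 and Il15 (0.0587) in resistant rats and of Ifngr2, Oas1a, Tapbp, Psmb9 and Socs1 in susceptible rats. Counts in resistant rats were then 2 kinases and adaptors, 0 partners, 0 co-regulators, 1 interferon or receptor and 2 interferon-induced genes, and in susceptible rats 4 interferon-induced genes. Over all probe sets the block gave 1290 calls in susceptible and 970 in resistant rats. Equal numbers were not shown to pair arrays: which array pairs belong to 1 rat is not given, and the correlation of the deviations of equal numbers was -0.16 to 0.20, over 0.1 in 6 of 10 pairs, and each array's own number correlated best in 6 of 10.

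Over all probe sets, the calls in susceptible rats were 2048, against 578 with the adjusted Welch test and 910 with only the arrays compared, and those in resistant rats 1570, against 729 and 968. After dosing they were 44, against 131 with the stricter filter and 0 with the adjusted Welch test. With the p and 2-fold change of the methods, the calls were 1012 in susceptible rats, 954 in resistant rats and 559 after dosing. Leaving out 1 array gave 1332 to 2270, 967 to 1661 and 7 to 89 calls in susceptible rats, in resistant rats and after dosing.

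Calls of interferon-induced genes were 8 in susceptible rats, against 2 with the adjusted Welch test, 3 with only the arrays compared and 3 to 9 when 1 array was left out. In resistant rats they were 3, against 0 with the adjusted Welch test, 5 with 1 probe set per gene, 6 with quantile normalization, unscaled values or the stricter filter, 7 with the p and fold change of the methods and 1 to 8 when 1 array was left out. After dosing they were 3, against 0 with the adjusted Welch test, 5 with 1 probe set per gene or only the arrays compared, 6 with the stricter filter, 12 with the p and fold change of the methods and 1 to 5 when 1 array was left out.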
